A study of Mus musculus with 16 samples.

Results

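The comparison described here is the one between 6 h and 4 h of auxin in E14 mouse embryonic stem cells in which DDX10 can be degraded on demand: the 2 libraries labelled 6 h against the 2 labelled 4 h, out of 16 libraries in 8 groups of 2. All genes with a mean of at least 10 normalized counts over the 16 libraries were taken, which left 13355 of 14552. Every library came from cells of 1 genotype, Ddx10-AID with Tir1, and the groups differ only in time: untreated cells, cells given the auxin indole-3-acetic acid at 500 µM for 2, 4, 6 or 12 h or for 1 or 2 days, and cells from which it was withdrawn after 2 days. The culture medium held serum, leukemia inhibitory factor (LIF), the GSK3 inhibitor CHIR99021 and the MEK inhibitor PD0325901. Cells without the degron that received auxin are not analysed here, so the effects of auxin itself and of the loss of DDX10 cannot be told apart. Separate cultures are not stated in the labels for the 2 libraries of a time point, so every p-value reflects the spread between these libraries alone, which may be technical.

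An auxin-inducible degron works through Tir1, a plant F-box protein that binds auxin and hands the tagged protein to the proteasome. DDX10 is a DEAD-box RNA helicase of the nucleolus that acts in the assembly of the small ribosomal subunit. When ribosome assembly fails, free ribosomal proteins can bind MDM2 and so stabilise p53, a transcription factor that switches on genes for cell cycle arrest, cell death and its own feedback. The question set by the time points is which transcripts first changed after 4 h, which went on in the direction they had taken between 2 and 4 h, and which turned back.

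Normalized totals lay between 14.9 M and 16.9 M counts per library, and the number of reads behind them was estimated at 13.6 M to 17.5 M. The log2 difference between the 2 libraries of a group had an SD over genes of 0.37 at 6 h and 0.39 at 4 h, against 0.62 in untreated cells and 0.53 at 1 day. In each group the libraries differed beyond counting noise, so none was treated as a duplicate. The defining markers of embryonic stem cells (Pou5f1, Sox2, Nanog, Sall4, Lin28a and Zfp42) were present in all libraries and summed to 54323 and 56171 at 4 h and to 52060 and 53446 at 6 h. Of 31 tested markers of primitive endoderm, trophectoderm, mesoderm, neural cells and fibroblasts, 0 were called at 6 h against 4 h. In bulk RNA, fewer cells of a type and less RNA per cell cannot be told apart.

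Few genes were called between 4 and 6 h when all 16 libraries shared 1 estimate of the spread. Klhl26, which encodes an adaptor of the Kelch-like family, and Cald1, which encodes the actin-binding protein caldesmon, rose. Cyp51, the lanosterol demethylase of cholesterol synthesis, and Srsf7, a splicing factor of the SR family, fell. In all, that fit (limma, Benjamini-Hochberg adjusted p below 0.05) called 2 genes higher, or 0.015% of the genes tested, and 3 lower, or 0.0225%, while 1025 genes had an unadjusted p below 0.05. A fit restricted to the 8 libraries of 2, 4, 6 and 12 h, planned as an alternative, leaves out the untreated and 1 day groups with their wider spread. It also leaves out the 2 day and withdrawal groups, whose SDs were 0.38 and 0.41. This second fit called 86 genes higher (0.644%) and 91 lower (0.681%), with 2064 at an unadjusted p below 0.05. The called genes included the 5 of the first fit. In the first fit 165 of them had an unadjusted p below 0.05, and their adjusted p had a median of 0.293 and a maximum of 0.895. The median standard error of a log2 difference was 0.16 in the first fit and 0.12 in the second. Log2 differences are the same in both fits, on the scale of log2(value + 1), and calls, standard errors and adjusted p-values below are those of the 8-library fit unless the 16-library fit is named. The 16-library fit was the planned main test, and only 5 of the 177 genes described below as called passed in it.

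The changes were small. Only 8 of the 177 called genes differed by at least 2-fold, all higher at 6 h, and the median over all genes was -0.01. It was 0.01 with libraries rescaled by upper quartiles. Counts of list members called below are to be read beside the 0.644% of all genes called higher and the 0.681% called lower. Counts of members above or below 0 are to be read beside the median, since the share of all genes on each side is not given here. Scaling affected the balance of directions: with libraries rescaled by upper quartiles 97 genes were higher and 53 lower, and with the trend in transcript length and GC content removed 134 were higher and 216 lower. Calls also depended on single libraries. Without 4 h replicate 1 there were 28 calls, without 4 h replicate 2 there were 58, without 6 h replicate 1 there were 5 and without 6 h replicate 2 there were 17. In all 177 the 4 h and 6 h libraries did not overlap, so leaving out 1 of them could not change a direction. The same direction in these 4 fits is therefore no evidence of stability. In the 16-library fit leaving out 4 h replicate 2 gave 2 calls and leaving out any other of the 4 libraries gave 0.

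**Figure D1:**
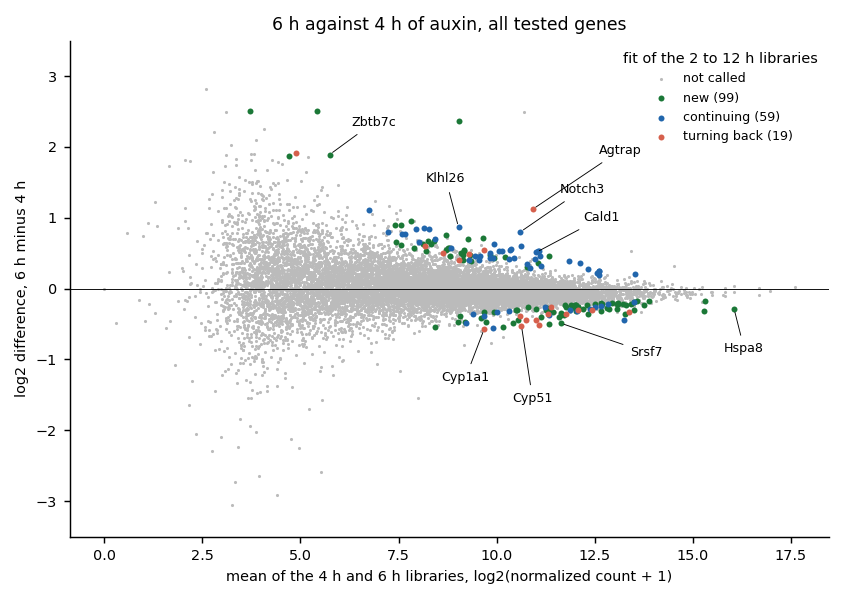
Log2 difference between 6 h and 4 h (y axis) against the mean level of the 4 libraries as log2(normalized count + 1) (x axis), one point per tested gene. Coloured points are the 177 genes called in the fit of the libraries of 2 to 12 h, by class. Most lie within 1 log2 unit of 0, and 1 uncalled gene lies outside the plotted range.

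Called genes were sorted by what they had done between 2 and 4 h, where 642 genes were higher (4.81%) and 486 lower (3.64%). A gene called between 4 and 6 h and not before is termed new, one called in the same direction in both intervals continuing, and one called in opposite directions turning back. There were 99 new genes, 36 higher and 63 lower. Continuing genes numbered 59, of which 43 were higher and 16 lower, and 19 turned back, 7 upwards and 12 downwards. Both intervals use the 4 h libraries, so an error in those libraries would push a gene towards turning back, and the sizes of the classes cannot be read as independent evidence of a course. The difference between the 2 intervals was tested too, and 121 genes (0.906%) were called for it. That test counts the 4 h libraries in both intervals and so carries the same error, and for genes sorted by the 2 calls it largely repeats the sorting.

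A gene counted as new is not shown to have changed its pace at 4 h, since a small difference before 4 h may only have missed the threshold. The 6 h libraries were also set against the 2 h libraries without use of the 4 h ones, where 2500 genes (18.7%) were called, 1164 higher and 1336 lower. Of the new genes 32 higher and 60 lower ones were called there in the same direction, as were all 59 continuing genes. For continuing genes this follows from the sorting, since the 2 intervals add up to this comparison. It also uses the 6 h libraries by which a gene was called new, so it is not independent of that call. Of the 19 turning genes 14 were not called at 6 h against 2 h, 2 lay beyond their 2 h level, and 3 were still on the side they had reached at 4 h. A further 1483 genes were called at 6 h against 2 h with no call in either interval.

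**Figure D2:**
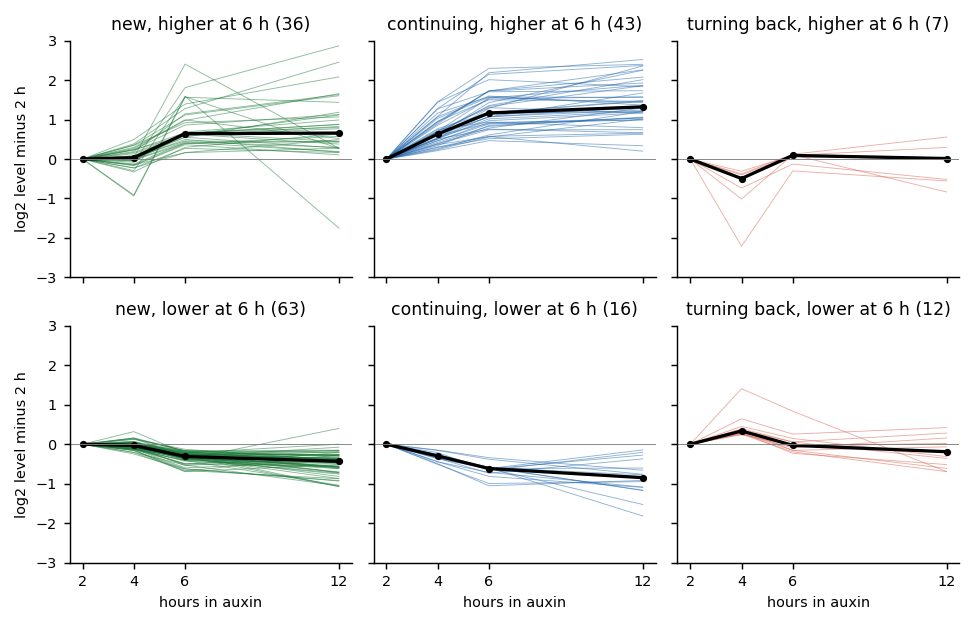
Mean log2 level of each called gene at 2, 4, 6 and 12 h of auxin (x axis, hours) minus its level at 2 h (y axis, log2), by class and direction. Thin lines are genes, and the black line is the median over the genes of a panel: continuing higher genes stand at 0.63 at 4 h and 1.17 at 6 h. The shape up to 6 h follows from how the classes were defined.

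Genes of cholesterol synthesis made up 5 of the 12 that turned downwards. The pathway is governed by SREBP2, a membrane-bound transcription factor that is released when sterols in the endoplasmic reticulum run low and switches on genes of sterol synthesis and uptake. Of 25 tested genes of sterol synthesis and uptake, 7 fell between 4 and 6 h and 0 rose, with a median log2 difference of -0.13, against -0.01 over all genes tested. Between 2 and 4 h, 12 of them had risen and 0 fallen, with a median of 0.29. Of the 12 that had risen, 5 fell after 4 h and 7 were not called, and 5 were still higher at 6 h than at 2 h. In the 16-library fit 2 of the 25 were called, Cyp51 among them, and 0 members of any other list. Leaving out 4 h replicate 1, 4 h replicate 2, 6 h replicate 1 or 6 h replicate 2 left 4, 6, 1 and 1 of the 7 sterol calls.

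Hmgcs1 encodes the cytosolic synthase of an early step of the mevalonate pathway. It was at 4396 and 4485 at 2 h, then 6149 and 5997 at 4 h, then 4997 and 4836 at 6 h, and at 3638 and 3508 at 12 h. It had climbed furthest of the turning sterol genes before 4 h, and at 6 h it was lower than at 4 h (-0.30, adjusted p = 0.012) but still above its 2 h level (0.15, adjusted p = 0.041).

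Cyp51 (chromosome 5, 4081145 to 4104746, minus strand, GRCm38) and Msmo1, which encode oxidases that remove methyl groups on the way from lanosterol to cholesterol, fell after 4 h as well. Cyp51 was at 1540.2 and 1514 at 2 h, then 1883 and 1862 at 4 h, then 1345 and 1257 at 6 h, then 1040.2 and 1096.5 at 12 h. The fall (log2 difference -0.53 ± 0.06, SE; adjusted p = 0.0061) took it below its 2 h level (-0.23, adjusted p = 0.025). It passed in the 16-library fit too (adjusted p = 0.024), where its earlier rise did not (adjusted p = 0.058), so that fit would class it as new. Msmo1 was at 1986 and 1957.5 at 4 h, then 1484 and 1412 at 6 h, a difference of -0.45 (adjusted p = 0.0087), and at 1040 and 1003 at 12 h. Insig1, whose product holds SREBP in the endoplasmic reticulum and which is itself an SREBP target, fell from 2302 and 2387 to 1740.4 and 1714.5 (-0.44 ± 0.05, adjusted p = 0.0071). Sqle, the squalene epoxidase gene, held its level until 4 h (3501 and 3461, then 3579 and 3442) and fell to 2678 and 2660.3 (-0.39 ± 0.05, adjusted p = 0.0082). In untreated cells Cyp51 was at 1288 and 1269, Msmo1 at 1262 and 1330, Insig1 at 1413 and 1304 and Sqle at 3495 and 3334. The 2 h libraries of Cyp51, Msmo1 and Insig1 were thus already above the untreated ones, a difference that was not tested here.

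Other members did not pass after 4 h. Idi1, the isopentenyl diphosphate isomerase gene, was at 3168 and 3139.6 at 4 h, then 2684.5 and 2593 at 6 h (-0.26, adjusted p = 0.06). Srebf2 itself, which encodes SREBP2, was at 5736 and 5685 and then 5516 and 5545 (-0.05, adjusted p = 0.68). Between 6 and 12 h, over all genes 901 were higher (6.75%) and 1451 lower (10.9%), and 13 of the 25 sterol genes were among the lower ones and 0 among the higher, with a median of -0.26. That interval shares the 6 h libraries with the one before. Scd2, a stearoyl-CoA desaturase gene of fatty acid synthesis, which SREBP factors also drive, turned after 4 h too: it was at 8936 and 9167 at 2 h, then 12073 and 11725 at 4 h, then 9500.1 and 9349.8 at 6 h (-0.34 ± 0.04, adjusted p = 0.0046). Neither the fall nor the earlier rise passed in the 16-library fit (adjusted p = 0.52 and 0.13). By 12 h Scd2 had risen again, to 10929 and 11085 (0.22, adjusted p = 0.0025), an interval in which 0 sterol genes rose. It was the 1 of 12 fatty acid synthesis genes called.

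Upstream sequence of turning sterol genes is printed because these genes moved together in both directions. RefSeq on GRCm38.p6 had entries for 4 of the 7 sterol genes that fell, namely Hmgcs1, Cyp51, Insig1 and Msmo1, and the 250 bases before its start site were searched in each. RefSeq and GENCODE place some starts differently: the windows of Cyp51, Insig1 and Msmo1 reach 49, 49 and 214 bases into the GENCODE gene. Only bases before both starts are printed, which is the whole window for Hmgcs1 (chr13:119690101-119690350, plus strand) and 201 bases for Cyp51 (chr5:4104747-4104947, minus strand) and for Insig1 (chr5:28071162-28071362, plus strand). The 36 such bases of Msmo1 are not printed. Sequences run 5′ to 3′ on the strand of the gene, and capitals mark CCAAT or its reverse complement, the box bound by NF-Y, or TCACCNCAC, letters of the sterol regulatory element.
Hmgcs1: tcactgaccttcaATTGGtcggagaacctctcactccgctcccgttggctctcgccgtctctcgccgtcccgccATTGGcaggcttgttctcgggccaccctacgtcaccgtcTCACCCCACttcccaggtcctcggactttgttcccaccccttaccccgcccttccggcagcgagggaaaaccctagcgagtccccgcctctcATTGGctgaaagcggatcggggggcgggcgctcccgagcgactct
Cyp51: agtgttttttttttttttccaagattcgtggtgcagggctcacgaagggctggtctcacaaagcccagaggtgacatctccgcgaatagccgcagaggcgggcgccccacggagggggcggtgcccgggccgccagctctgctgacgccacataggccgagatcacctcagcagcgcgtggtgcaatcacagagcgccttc
Insig1: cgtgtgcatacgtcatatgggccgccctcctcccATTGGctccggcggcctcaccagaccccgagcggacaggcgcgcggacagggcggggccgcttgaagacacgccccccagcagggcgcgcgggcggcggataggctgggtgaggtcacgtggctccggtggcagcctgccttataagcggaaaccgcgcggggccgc
Both strands were searched for exact matches only, and variants of these strings were not marked. The absence of a match therefore does not show the absence of a sterol element. The Hmgcs1 window held the sterol element letters once, starting 137 bases before the start site, and CCAAT 3 times, all on the opposite strand. Insig1 held CCAAT once on the opposite strand, starting 216 bases before the RefSeq start, and no sterol element letters. The RefSeq windows of Cyp51 and Msmo1 held CCAAT 1 and 3 times and no sterol element letters, and each of these CCAAT matches lay inside the GENCODE gene. Over 32851 windows of 250 bases, 33.8% held CCAAT and 1.11% the sterol element letters. A match describes the letters only and does not show a bound site.

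Cyp1a1, the classical target of the aryl hydrocarbon receptor and an enzyme that metabolises indoles and other ligands, also turned. It was at 74.5 and 49.8 in untreated cells, then 415 and 328 at 2 h, then 987 and 973 at 4 h, then 670.5 and 648 at 6 h, then 214 and 242 at 12 h. The peak was at 4 h, and at 6 h both libraries were still above both 2 h libraries. The fall was -0.57 ± 0.12 (adjusted p = 0.046; 0.61 in the 16-library fit). Cyp1b1, another target, was at 226 and 204 at 4 h, then 208 and 198 at 6 h and did not pass (-0.08, adjusted p = 0.84). Cyp1a1 was the 1 of 10 receptor targets called.

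Further genes that turned downwards were of mixed function. Dmtn, which encodes the actin-bundling protein dematin, was at 1125.5 and 1130.5 at 2 h, then 1717 and 1813 at 4 h, then 1296 and 1402 at 6 h (-0.39, adjusted p = 0.02), and remained above its 2 h level (0.26, adjusted p = 0.018). Rsrp1, which encodes an arginine- and serine-rich protein, went from 3864 and 3944 to 3158 and 2933 (-0.36, adjusted p = 0.0099). Ankrd10, an ankyrin repeat gene, went from 2836 and 2814 to 2149.5 and 2261 (-0.36, adjusted p = 0.013). At 6 h Rsrp1 and Ankrd10 did not differ detectably from 2 h (adjusted p = 0.23 and 0.65).

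Upward turns were fewer. Slc25a51, which encodes the mitochondrial NAD carrier, was at 898 and 984 at 2 h, dropped to 671 and 663 at 4 h and came back to 1013 and 945 at 6 h (0.55 ± 0.07, adjusted p = 0.0091). Vps45, a vesicle trafficking gene, followed the same path with 386 and 378, 222 and 236 and 379 and 322 (0.61, adjusted p = 0.038). Tmem106b, a lysosomal membrane protein gene, went from 507 and 528 at 4 h to 763 and 696 at 6 h (0.49, adjusted p = 0.021). In these 3 genes the 4 h libraries were the lowest of the times from 2 to 12 h, which up to 6 h largely follows from the class. Slc25a51 was at 546 and 600 in untreated cells, below its 4 h level. Agtrap, which encodes a protein that binds the angiotensin receptor, had uneven libraries: 2998 and 1995 at 2 h, then 1534.5 and 954 at 4 h, then 2700.4 and 2574 at 6 h (1.12 ± 0.21, adjusted p = 0.039). Qsox2 and Cldn25 were also of this class, with log2 differences of 0.50 and 0.41, as was Fign, at a mean below 50 (1.91).

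Most targets of p53 that had risen by 4 h were not called again after it. In 4 lists with 58 tested genes, 33 had risen between 2 and 4 h, and the median log2 difference of that interval was 0.47. Between 4 and 6 h, 4 rose and 0 fell, with a median of 0.09, and 42 of the 58 lay above 0. Of the 33, only 3 went on rising by the test and 30 were not called, while 32 were still higher at 6 h than at 2 h. That p53 targets had risen by 4 h was known from these data when the lists were chosen.

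Mdm2, the ubiquitin ligase gene that forms the feedback loop with p53, was at 3258 and 3236.5 at 2 h, then 5755 and 6051 at 4 h, then 5334 and 5218 at 6 h, then 6003 and 5962 at 12 h. Both 6 h libraries lay below both 4 h libraries, but the difference did not pass (-0.16 ± 0.04, adjusted p = 0.11), while the intervals differed (adjusted p = 0.00038). Cdkn1a, which encodes the cell cycle inhibitor p21, was at 2735.5 and 2728 at 4 h, then 2836 and 2754 at 6 h (0.03, adjusted p = 0.85), after a rise of 0.66 from 2 h. Both 6 h libraries lay slightly above both 4 h libraries, and the intervals differed (adjusted p = 0.03). Trp53 mRNA was at 8159.7 and 8461 and then 7893 and 8147.5, with no call in either interval (adjusted p = 0.72 and 0.66). Between 6 and 12 h Cdkn1a rose again, by 0.47 (adjusted p = 0.00082).

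Members that did rise after 4 h belonged to the cell death and the repair and metabolism lists, with 2 in each, and none were in the 7 feedback or the 15 growth arrest genes. Perp encodes a membrane protein of desmosomes that p53 induces in apoptosis. It was at 107 and 108 at 2 h, then 185 and 168 at 4 h, then 334 and 299 at 6 h, then 396 and 396 at 12 h, and both 6 h libraries were far above both 4 h libraries (0.84 ± 0.12, adjusted p = 0.012; 0.15 in the 16-library fit). Ephx1, the microsomal epoxide hydrolase gene, rose from 160.5 and 138 to 242 and 267 (0.77, adjusted p = 0.023). Dcxr, a carbonyl reductase gene, rose from 99.8 and 117 to 192 and 187 (0.81, adjusted p = 0.045). Dapk1, the death-associated protein kinase gene, rose from 1014 and 991 to 1351 and 1370.2 (0.44, adjusted p = 0.014) and was new. Bbc3, which encodes the cell death protein PUMA, was at 397 and 454 and then 571 and 587 and missed the threshold (0.45, adjusted p = 0.076). Whether the cell death list differs from the other lists was not tested.

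**Figure D3:**
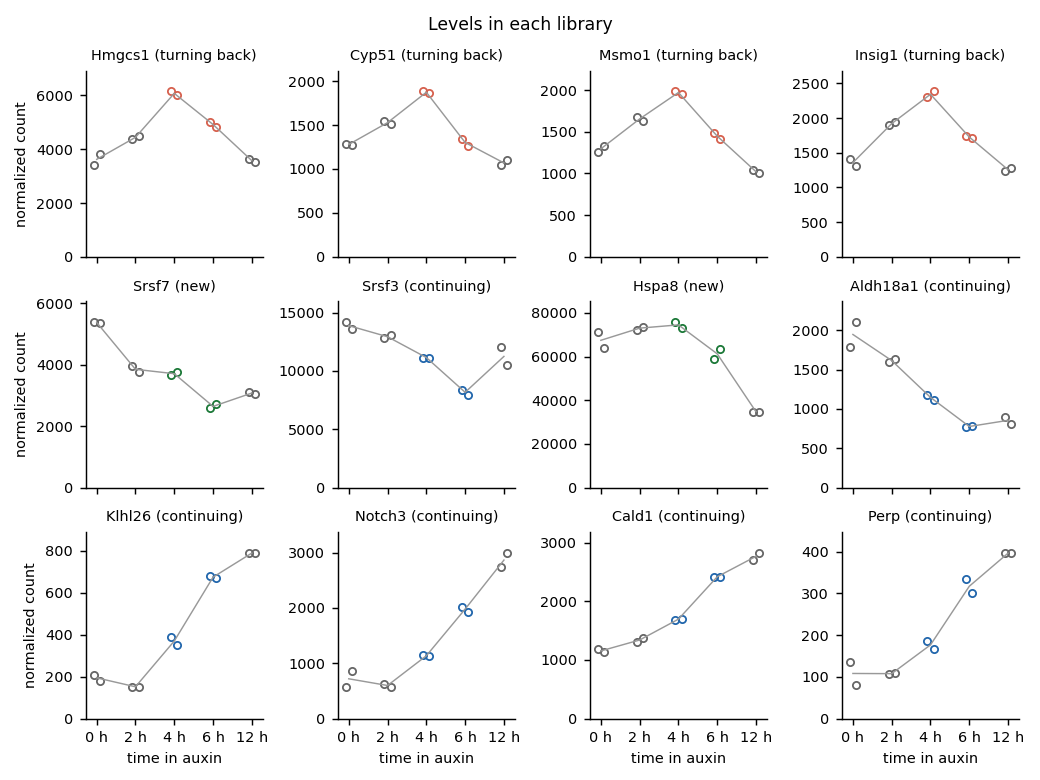
Normalized counts (y axis, from 0) of 12 genes in each library of untreated cells and of 2, 4, 6 and 12 h in auxin (x axis), circles for libraries and a line through the group means, with the 4 h and 6 h libraries in the colour of the class. Hmgcs1, Cyp51, Msmo1 and Insig1 peak at 4 h, and Klhl26, Notch3, Cald1 and Perp are higher at each time from 4 h on.

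Among continuing genes that rose, Notch3 had the smallest adjusted p. It encodes a Notch receptor (ENSMUSG00000038146, chromosome 17, 32120820 to 32166852, minus strand) and was at 629 and 565 at 2 h, then 1147.5 and 1122 at 4 h, then 2023 and 1933 at 6 h, then 2736 and 2991 at 12 h. Each time was clear of the one before. Its gain after 4 h was 0.80 ± 0.07 (adjusted p = 0.0038; 0.16 in the 16-library fit, where the spread of the untreated and 1 day libraries enters). Klhl26 (chromosome 8, 70450219 to 70476968, minus strand) was at 152 and 150, then 386 and 352, then 678 and 668, and at 788 and 788 at 12 h. That was a gain of 0.87 ± 0.09 after one of 1.28, and it passed in both fits (adjusted p = 0.0043 and 0.015).

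Cald1 (chromosome 6, 34598500 to 34775473, plus strand) rose from 1309 and 1371 at 2 h to 1684 and 1707 at 4 h, then 2416 and 2422 at 6 h, a gain of 0.51 ± 0.05 in the last interval (adjusted p = 0.0043 and, in the 16-library fit, 0.04). Synm, which encodes the intermediate filament protein synemin, rose from 137 and 145 to 231 and 254 (0.78, adjusted p = 0.029). Ahnak2, a gene for a very large scaffold protein, rose from 200.4 and 203 to 349 and 381 (0.85, adjusted p = 0.017), and Rtkn, which encodes the scaffold protein rhotekin, from 217 and 224 to 381 and 409 (0.84, adjusted p = 0.02). In all of these the 2 groups did not overlap, but 46.5% of all tested genes had groups of 2 that did not overlap.

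Over the 43 continuing higher genes the median log2 difference was 0.63 from 2 to 4 h and 0.51 from 4 to 6 h. From 6 to 12 h, 12 rose again, 2 fell and the median was 0.16. Slc4a11, a membrane transporter gene and one of the 12, went from 446 and 404 at 6 h to 663 and 675 at 12 h, after 252 and 269 at 4 h.

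Among new genes that rose, Zbtb7c, a gene for a zinc finger repressor, was flat at 24.3 and 21.6 at 2 h, then 27.7 and 16.8 at 4 h, rose to 79.7 and 86.3 at 6 h and was at 185 and 164 at 12 h. Its difference of 1.89 ± 0.26 was the largest among called genes with a mean of at least 50 and no predicted-gene name (adjusted p = 0.01; 0.098 in the 16-library fit). Vcan, which encodes the matrix proteoglycan versican, was at 573 and 443 at 2 h, then 674 and 546 at 4 h, then 1007.5 and 980.3 at 6 h (0.71 ± 0.13, adjusted p = 0.033), and reached 1705 and 1485 at 12 h. Ttll6, a gene for a tubulin-modifying enzyme, rose from 109.5 and 125 to 216 and 220.5 (0.90, adjusted p = 0.015) and to 478 and 511 at 12 h. Zbtb7c, Vcan and Ttll6 thus rose again between 6 and 12 h (adjusted p = 0.02, 0.0065 and 0.00036).

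Fbxl20, an F-box protein gene, rose from 306 and 312 to 586 and 469.9 (0.76, adjusted p = 0.015). Pid1, a gene for a phosphotyrosine-interaction domain protein, rose from 507 and 427 to 758 and 752 (0.70, adjusted p = 0.02) and then fell to 539 and 549 at 12 h. Of the 36 new higher genes, 11 rose again between 6 and 12 h, 7 fell and 18 were not called. The 8 changes of at least 2-fold include Zbtb7c and Agtrap. Others were named here after their values were seen. Card6, Grin2b, Nfix and Fign were at a mean below 50, and Fign belonged to the genes that turned back upwards. Gm15446 was at 157 and 140.1 at 4 h, then 1363 and 435 at 6 h, so the size of its difference depended on 1 library. Its log2 difference was 2.37, and 1.55 without 6 h replicate 1 and 3.19 without 6 h replicate 2.

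The median difference of the 63 new genes that fell was -0.28, against 0.58 over the 36 that rose. Srsf7 (chromosome 17, 80200080 to 80207307, minus strand) was at 5388 and 5369 in untreated cells, then 3950.3 and 3756 at 2 h, then 3657 and 3765 at 4 h, and then at 2583 and 2709.9 at 6 h, then 3102 and 3060.3 at 12 h. The plateau from 2 to 4 h was followed by a log2 difference of -0.49 ± 0.05 (adjusted p = 0.0043, and 0.015 in the 16-library fit). Tra2a, which encodes another arginine- and serine-rich splicing regulator, fell from 2597 and 2491 to 1975 and 1867 (-0.41 ± 0.05, adjusted p = 0.0087) and rose to 3369 and 3249.7 at 12 h (0.78, adjusted p = 2.2e-05). Srsf3, also of the SR family, was continuing, at 12790 and 13077 at 2 h, then 11146 and 11154 at 4 h, then 8391 and 7955 at 6 h (-0.45 ± 0.06, adjusted p = 0.0087). It too rose by 12 h, to 12023 and 10471 (0.46, adjusted p = 0.00063). For Srsf7, Tra2a and Srsf3 the 6 h libraries were the lowest of the times up to 12 h.

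Srf, the serum response factor gene, fell from 1747 and 1683 to 1216 and 1302 (-0.45 ± 0.07, adjusted p = 0.017) and was the 1 of 23 immediate early genes called. Pnp, the purine nucleoside phosphorylase gene, fell from 687 and 678 to 490.3 and 493 (-0.47, adjusted p = 0.019), and Sox12, a SOX transcription factor gene, from 959 and 822 to 669.7 and 668 (-0.41, adjusted p = 0.045). Dancr, a long noncoding RNA, was at 371 and 443 and then 268 and 289 (-0.54, adjusted p = 0.047). Klf8 depended on 1 library: it was at 1552 and 1191.5 at 4 h, then 977 and 891 at 6 h (-0.54, adjusted p = 0.044), and the difference was -0.35 without 4 h replicate 1 and -0.73 without 4 h replicate 2.

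Some protein folding genes of the cytosol and of the endoplasmic reticulum fell. Of 18 heat shock chaperone genes 3 fell and 0 rose (median -0.14), and of 16 genes of the unfolded protein response 3 fell and 0 rose (median -0.10). All 6 were new. Hspa8, which encodes the constitutive chaperone HSC70, was at 72290 and 73708 at 2 h, then 75729 and 73256 at 4 h, then 59064 and 63423 at 6 h, then 34663 and 34824 at 12 h. Its log2 difference of -0.28 ± 0.04 (adjusted p = 0.0087) was followed by a larger one of -0.82 by 12 h (adjusted p = 1.7e-06). Hsph1 and Dnaja1, its nucleotide exchange factor and a J-domain partner, had differences of -0.28 and -0.22 (adjusted p = 0.025 and 0.045).

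Hspa5, which encodes the endoplasmic reticulum chaperone BiP, fell from 11227 and 10830 to 8813 and 8353 (-0.36 ± 0.05, adjusted p = 0.0082), having been at 10738 and 10697 at 2 h. Manf, a gene for a secreted factor induced by stress in that compartment, fell from 1565 and 1624 to 1088 and 1192 (-0.49, adjusted p = 0.021), and Calr, the calreticulin gene, fell too (-0.19, adjusted p = 0.029). Between 6 and 12 h, 12 heat shock genes fell and 1 rose (median -0.32), whereas 1 gene of the unfolded protein response fell and 2 rose (median 0.08).

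Some genes of amino acid synthesis fell further. ATF4, through which the integrated stress response acts on transcription, drives genes for amino acid synthesis, import and tRNA charging. Of 18 genes of serine, one-carbon, proline and asparagine synthesis, 3 fell after 4 h and 0 rose (median -0.15), after 7 had fallen before 4 h (median -0.20). Aldh18a1, which opens proline synthesis, was at 1589.8 and 1637.5 at 2 h, then 1179.7 and 1113 at 4 h, then 773 and 780.3 at 6 h, then 902 and 808 at 12 h. Its log2 difference of -0.56 ± 0.07 (adjusted p = 0.0087; 0.12 in the 16-library fit) was the largest among the 16 continuing genes that fell. Psat1, a serine synthesis enzyme gene, fell from 6545 and 6172 to 5347 and 5259 (-0.26, adjusted p = 0.023) and to 2834 and 2796 at 12 h, and Mthfd1l, of mitochondrial folate metabolism, was new (-0.27, adjusted p = 0.035).

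Aminoacyl-tRNA synthetases load amino acids onto tRNA. All 20 cytosolic ones tested lay below 0 between 4 and 6 h, with a median of -0.14, against -0.01 over all genes tested. Only 3 passed, where 0.681% of all genes were called lower: Yars (-0.38, adjusted p = 0.031), Sars (-0.32, adjusted p = 0.031) and Nars (-0.28, adjusted p = 0.013), for tyrosine, serine and asparagine. Between 2 and 4 h 9 had fallen and at 6 h against 2 h 15 were lower, beside 486 and 1336 of all 13355 genes tested. Slc7a3, a cationic amino acid transporter gene, fell from 2713 and 2541 to 2245 and 2124 (-0.27, adjusted p = 0.045) and was the 1 of 13 transporters called. Of the 16 genes of ATF4 with its partner factors and stress effectors, 0 were called, with 13 below 0 and a median of -0.16. Atf4 itself was at 3261 and 3261 and then 2967.5 and 2854.5 (-0.16, adjusted p = 0.13).

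Differences in ribosome assembly and translation genes were small. Ddx10 mRNA, from the targeted gene, was at 1886 and 1855 at 4 h, then 1676 and 1675 at 6 h (-0.16, adjusted p = 0.24), and since the degron acts on the protein this does not measure its removal. Of 61 genes for assembling the small ribosomal subunit 1 fell, Wdr43 (-0.23, adjusted p = 0.029), a component of the early processing complex on the rRNA precursor, with 52 below 0 and a median of -0.10. Of 56 genes for the large subunit 4 fell, namely Rrp1b (-0.37), Ppan (-0.35), Gnl3 (-0.26) and Nop2 (-0.24), with 49 below 0 and a median of -0.11. At 6 h against 2 h the numbers lower were 23 and 22, beside 1336 of all 13355 genes tested. Gtf3c1, a subunit gene of the RNA polymerase III factor TFIIIC, rose from 3889.8 and 3934 to 4957 and 5082 (0.36, adjusted p = 0.0087), the 1 of 32 polymerase I and III genes called. Of 31 translation factor genes 5 fell, among them Eif1, of start codon selection, from 4792 and 4629 to 3892 and 3664 (-0.32, adjusted p = 0.025).

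No gene of the pluripotency lists turned back. Pou5f1, which encodes OCT4, was at 15537 and 16615 at 4 h, then 14775 and 15251 at 6 h (-0.10, adjusted p = 0.34). Nanog was at 14567 and 14560 and then 14324 and 14270 (-0.03, adjusted p = 0.76), and Sox2 at 6851 and 7196 and then 6782 and 7509.7 (0.02, adjusted p = 0.89). Zfp42 was at 8937 and 9144 and then 8407 and 8143, a difference that did not pass (-0.13, adjusted p = 0.14) after a fall, with a log2 difference of -0.38 between 2 and 4 h. Klf4 and Esrrb, of the naive state, had differences of 0.10 and -0.08 (adjusted p = 0.49 and 0.51). Of 17 core pluripotency genes 2 fell, L1td1, an RNA-binding protein gene (-0.21, adjusted p = 0.041), and Dnmt3l, the cofactor of the de novo DNA methyltransferases (-0.31, adjusted p = 0.017). The median was -0.12 with 15 below 0. Of 19 naive-state and 14 formative and primed genes 0 were called, and their medians were -0.05 and -0.10. Dnmt3l fell from 4218 and 4059 to 3385 and 3302 and on to 1420.2 and 1442 at 12 h.

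Of 42 genes of the G1 to S transition and replication 2 fell, Ccne1, which encodes cyclin E1 (-0.24, adjusted p = 0.037), and Gmnn, which encodes the licensing inhibitor geminin (-0.30, adjusted p = 0.044), with 37 below 0. Of 33 genes of mitosis 0 were called. Among continuing falls outside these lists, Mir17hg, the host transcript of a microRNA cluster, went from 698 and 680.04 to 514 and 472 (-0.48 ± 0.09, adjusted p = 0.027), and Snhg1, a snoRNA host transcript, from 920 and 934 to 722 and 702 (-0.38, adjusted p = 0.022). Pfkp, a phosphofructokinase gene, fell from 2783 and 3080.3 to 2246 and 2278 (-0.37, adjusted p = 0.02) and was the 1 of 29 glycolysis and hypoxia genes called.

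**Figure D4:**
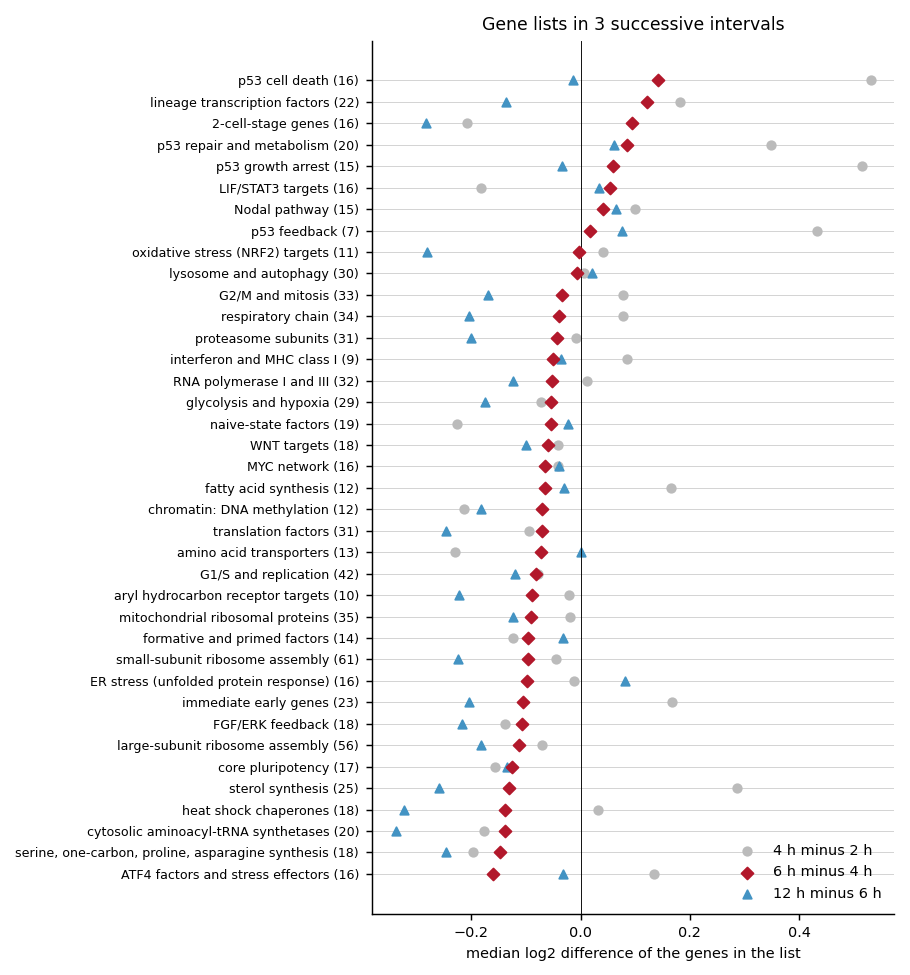
Median log2 difference (x axis) of the genes in each list (y axis, number of tested genes in brackets) for 4 h minus 2 h (circles), 6 h minus 4 h (diamonds) and 12 h minus 6 h (triangles), ordered by the value for 6 h minus 4 h. The sterol list lies at 0.29, -0.13 and -0.26. The p53 lists lie at 0.35 to 0.53 in the first interval and at 0.02 to 0.14 in the second. The last interval is 3 times as long, and neighbouring intervals share libraries.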

How the data were processed

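Per the labels' protocols, mRNA was purified from total RNA and a VAHTS Universal V6 kit was used for the libraries. The submitters' processing notes name Trim Galore, STAR, RSEM and DESeq2 and the mouse build mm10 (GRCm38), while versions, roles and the annotation are not given in the sources used. The deposited values are a signal, normalized read counts per gene, that the authors scaled per library. They are not whole numbers: a whole multiple of 1 read, to within 0.1, was found for 72.5% to 99.1% of low values for 1884 genes with 1 transcript, against 36.0% to 45.2% for other genes, so whole reads could not be recovered for all genes. Read numbers per library were estimated from that step. Gene positions are from GENCODE M21, which held 14467 of the 14552 gene identifiers.

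Values were analysed as log2(value + 1), which understates changes of low genes, in limma 3.58.1 under R 4.3.3, with a mean per group, empirical Bayes moderation with an intensity trend, and Benjamini-Hochberg adjustment over the 13355 genes. Residual degrees of freedom were 8 with 16 libraries and 4 with 8. The code was tested on simulated data. The comparison, the genes named and the 43 gene lists were chosen with earlier results of these data known. Named were 10 fixed genes, the 20 called genes with the largest difference in each direction and the 8 largest in each class and direction (mean of at least 50, no predicted-gene name, no overlap of groups), and up to 4 genes per list with the smallest p. The rule was applied to the calls of both fits. Calr, Ccne1, Dnmt3l, L1td1 and Hmgcs1, as called members of their lists, and Cyp1b1, Idi1 and Srebf2 were named after their values were seen. A few genes that the rule named are not reported here, and counts include them. No set test was run. The other alternatives were pseudocounts, filters, scalings, removal of a length and GC trend, a replicate block, the 4 h and 6 h libraries alone and each 4 h and 6 h library left out, and, chosen after seeing the data, library weights a fit without the untreated and 1 day libraries and, in the 8-library fit, each 2 h and 12 h library left out. Without stated strandedness, reads of overlapping genes cannot be told apart.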

Additional observations from a re-analysis of the deposited data

How the results depend on the processing

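Precision is limited by 2 libraries per group and by the low values of many genes. With all 16 libraries, pseudocounts of 0.5 and 5 and no filter gave the same 2 genes higher and 3 lower. The fit of the libraries of 2 to 12 h gave 86 higher and 91 lower, 99 new, 59 continuing and 19 turning back, 7 sterol genes lower, and 1128, 2500, 121 and 2352 genes called for 4 h against 2 h, 6 h against 2 h, the difference of the intervals and 12 h against 6 h. Without the untreated and 1 day libraries these values were 103, 118, 128, 69, 24, 8, 1177, 2529, 132 and 2341. With library weights they were 116, 116, 147, 59, 26, 7, 1120, 2726, 136 and 2610. With all libraries and equal weights the 4 counts of genes called were 327, 1042, 14 and 866. The 4 h and 6 h libraries alone gave 41 higher, 36 lower and 7 sterol genes lower, and 72 of those 77 genes were among the 177. Removing the length and GC trend gave 8 lower, 5 new, 2 turning back, 4 sterol genes and 23 genes for the difference of the intervals, and in the 8-library fit 134 higher, 216 lower, 212 new, 98 continuing and 40 turning back. Turning back numbered 1, against 0, with a mean of at least 50, with either rescaling and with classes from unadjusted p, where 1 gene was new. Upper quartiles gave 53 lower in the 8-library fit. The cause of these differences was not tested.

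Replicate numbers did not pair the libraries: deviations of same-numbered libraries correlated at 0.05 between 4 h and 6 h, so the block says little. With replicate as a block 1 gene was higher, 3 lower, 1 continuing and 8 called for the difference of the intervals, and in the 8-library fit 73 were higher and 70 lower.

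Leaving out each 4 h and 6 h library in turn gave, with the others of the 16, 0 to 1 higher, 0 to 1 lower, 0 new, 0 continuing, 0 to 2 turning back, 0 sterol genes, and 97 to 241, 340 to 860, 0 to 2 and 136 to 679 genes for the other 4 comparisons. Leaving out each of the 8 in turn in the 8-library fit gave 3 to 72 higher, 2 to 62 lower, 4 to 75 new, 1 to 47 continuing, 0 to 15 turning back and 1 to 7 sterol genes. Sox2, not called, went from 0.02 to -0.01 without 4 h replicate 1 and to -0.05 without 6 h replicate 2, and was 0.10 without 6 h replicate 1.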

Other observations

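SR splicing factors were looked at as a family after Srsf7 and Srsf3 had been seen among the genes that fell, so the count below is a description with no test. Of 11 tested Srsf genes, 5 fell between 4 and 6 h in the 8-library fit (Srsf3, Srsf4, Srsf5, Srsf6 and Srsf7), 0 rose, 9 lay below 0 and the median log2 difference was -0.21. Srsf4, Srsf5 and Srsf6 had differences of -0.30, -0.28 and -0.21 (limma adjusted p = 0.022, 0.014 and 0.044). Srsf2 was at -0.34 and missed the threshold (adjusted p = 0.052), and Srsf1 was at -0.11 (adjusted p = 0.31). Genes of the Luc7-like family, which act in recognition of the 5′ splice site, were also seen among the calls: Luc7l was new and lower at 6 h (-0.32, adjusted p = 0.017), and Luc7l3 turned back (0.36 between 2 and 4 h, then -0.31, adjusted p = 0.039). Differential splicing of these genes was not analysed here.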
